A study of Mus musculus with 27 samples.

Results

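Late hemogenic endothelium (HE2) is the adherent, blood-committed cell stage sorted here as KIT+TIE2+CD41+ cells, and the comparison is between HE2 cells in which a dominant-negative FOS peptide (dnFOS) was induced with doxycycline (DOX) and HE2 cells that were not. The arrays were taken by the labelled cell type, hemogenic endothelium 2, and by the labelled DOX treatment, and all genes on them were examined. They are 4 of the 27 arrays of the series, 2 untreated and 2 given 1 µg/ml DOX for 2 days. All 4 came from dnFOS embryonic stem cells, in which a Flag-tagged dnFOS cassette was placed in A2lox cells at the inducible Hprt locus. The cells were differentiated for 3.75 days as embryoid bodies, FLK1+ cells were enriched from these, and HE2 cells were sorted after 2 days of blast culture with or without DOX. The line was grown from a picked clone, and DOX was not tried on cells that lack the cassette among these arrays. Nothing in the labels says whether the 2 replicates came from separate differentiations, so p-values measure the spread between arrays, and the number of arrays limits the precision of every value.

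AP-1 is a family of transcription factors that bind DNA as dimers of FOS, JUN, ATF, BATF and MAF proteins and that couple growth factor and cytokine signals to gene expression. dnFOS pairs with JUN proteins and keeps the dimer off DNA. HE2 cells stand between endothelium and blood: they still carry endothelial surface proteins, have switched on RUNX1-dependent blood genes, and give rise to floating hematopoietic progenitors (HP). PU.1, encoded by Spi1, and its myeloid targets come up over this transition.

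The comparison asks how gene expression in cells sorted as HE2 differs when AP-1 was blocked over the 2 days of blast culture before the sort. A level below is the log2 of the signal less the 75th percentile of that array, and a difference is DOX minus untreated on that scale. On the HE2 arrays the 75th percentile of the signal was 73.2 for untreated replicate 1, 603 for untreated replicate 2, 263 for DOX replicate 1 and 293 for DOX replicate 2, against 73.2 to 636 over all 27 arrays. Untreated replicate 1 was therefore the dimmest array of the series. Both replicates 1 lay on 1 slide and both replicates 2 on another, so that each pair of the same number was also compared on its own slide. Of 14237 named genes with a value on all 4 arrays, untreated replicate 1 was at least 4-fold below all the other 3 arrays for 346 and at least 4-fold above them for 510. DOX replicate 2 stood at least 4-fold below all the others for 350 genes and above them for 13. For untreated replicate 2 and DOX replicate 1 these counts were 36 or lower. Each group thus held an array that stood apart.

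The cells were checked against the markers of their sort. Kit, the stem cell factor receptor, had levels of 3.94 and 4.39 untreated and 4.83 and 5.39 with DOX. Itga2b, which encodes CD41, had 2.64 and 3.77 untreated, and 3.84 in DOX replicate 1 but 0.06 in DOX replicate 2. Tek, which encodes TIE2, had 0.87 and 2.33 untreated, and 2.71 and -0.74 with DOX. Pecam1, an endothelial adhesion molecule, showed the same low value of -0.76 in DOX replicate 2 against 2.07 in DOX replicate 1. The library labelled DOX replicate 2 was thus low for 2 of the 3 sorting markers. All 6 markers of hemogenic endothelium were well above background on all 4 arrays, among them Runx1 at 4.57 and 3.60 untreated and 3.71 and 4.41 with DOX. Acta2, the smooth muscle actin, lay between 3.89 and 4.58 in HE2, against 9.79 and 9.84 in the untreated smooth muscle (SM) cells with the same replicate numbers.

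Of 24093 genes tested, limma called 1 at an adjusted p under 0.05 and at least 2-fold, which is 0.00415% of them. This gene was Trim54, a tripartite motif protein known from muscle microtubules. Its levels were -1.94 and -1.17 untreated and -5.96 and -6.77 with DOX, and it was not well above background on either DOX array. Trim54 fell at least 9.96-fold (fitted log2 difference -4.81, SE 0.71, limma adjusted p = 0.0495). The call was lost in 15 of the 21 alternative analyses that tested Trim54, with an adjusted p between 0.0137 and 0.741 over all of them. The number of genes called was 0 without untreated replicate 1, 323 without untreated replicate 2, 1 without DOX replicate 1 and 0 without DOX replicate 2. The 1 gene called without DOX replicate 1 was Spi1, not Trim54. The next lowest adjusted p was 0.279. Nominally, 1472 genes lay at least 2-fold higher and 951 at least 2-fold lower with DOX where an unadjusted p below 0.05 was asked for, 6.11% and 3.95% of those tested. In all, 2552 genes had an unadjusted p under 0.05, where 1205 are given by chance.

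The 2 pairs differed in which genes they moved. Across 24075 genes, which are not independent replicates, the differences of replicate 1 and replicate 2 correlated with r = 0.27 and shared their sign for 61.35%. Among named genes, 1260 were at least 2-fold higher in both pairs (8.85%) and 417 at least 2-fold lower in both (2.93%). These shares depended on how arrays were scaled. Of named genes, 65.62% had a difference above 0. The median difference was 0.17 over all genes tested and 0.42 over the 14248 that had a gene symbol, and with other normalizations the latter lay between -0.10 and 0.88. It also moved with signal. In the dimmest of 5 equal bins of genes the median difference was -1.16 in replicate 1 and 0.13 in replicate 2, and in the brightest bin it was 0.37 and 0.78. Lists of genes are therefore given beside the median of all named genes, and by counts that hold in both pairs. Because HE2 cells were profiled in bulk, fewer expressing cells and less RNA per cell cannot be told apart.

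**Figure D1:**
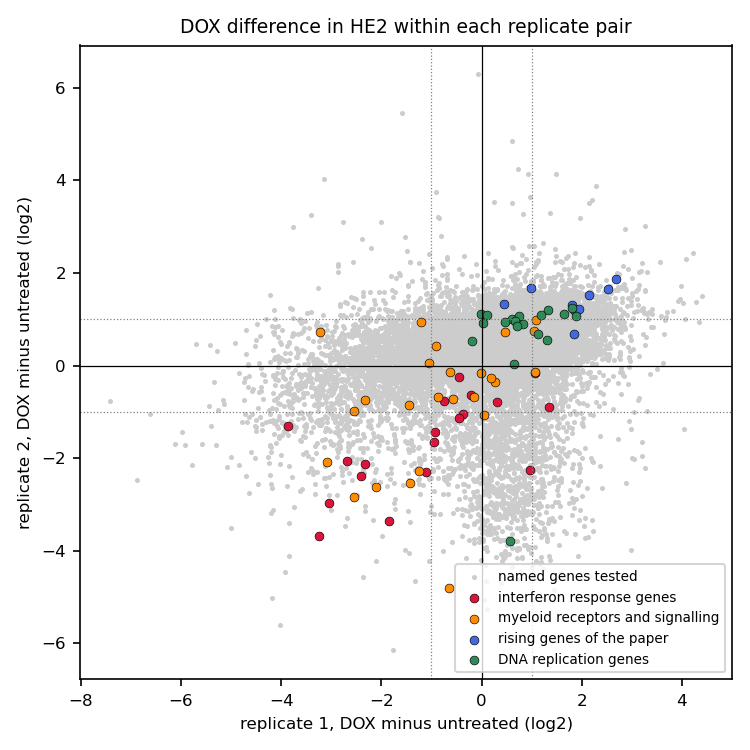
Difference between the DOX and the untreated array (log2) of replicate 1 on the x axis and of replicate 2 on the y axis, with 1 grey point for each named gene tested and coloured points for 4 gene lists; dotted lines mark 2-fold. Interferon response and myeloid receptor genes lie mostly at the lower left, the 9 genes of the study's rising clusters at the upper right, and a column of grey points below 0 in replicate 2 alone is where DOX replicate 2 stood apart.

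Most genes of the interferon response had lower levels with DOX, although none was called. Of 19 tested, 17 had a difference below 0, and 13 had both DOX arrays below both untreated arrays, against 10.7% of named genes. At least 2-fold lower in both pairs were 8, and 0 were higher, against 2.93% and 8.85% of named genes. Of the 8, Oas1a, Rtp4, Irf7 and Ifi44 were not well above background on every DOX array. They entered the test through the untreated group, so for them the filter itself favoured this direction. The median difference of the list was -1.18, beside 0.42 for all named genes, and it was -0.94 in replicate 1 and -1.43 in replicate 2. In the bright pair of replicate 2 none of the 5 signal bins had a median under 0.13. In replicate 1 the dimmest bin had a median of -1.16 and the next -0.61. There the -0.94 of the list was thus not set apart from dim genes at large. Over 8 normalizations the median of the list stayed between -1.69 and -0.72, with 5 to 11 genes at least 2-fold lower in both pairs and 0 higher. The lowest adjusted p among the 8 was 0.455.

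Isg15, the ubiquitin-like protein that is conjugated to others after interferon signalling, had levels of 1.95 and 3.06 untreated and -0.46 and 0.68 with DOX. The groups did not overlap, and the fitted difference was -2.39 (SE 0.67, adjusted p = 0.467 with limma), 5.25-fold. A second Isg15 probe gave -2.97. Usp18, the protease that removes ISG15 and dampens the interferon receptor, had 0.73 and 1.50 untreated and -1.60 and -0.63 with DOX. Both DOX arrays were again below both untreated arrays, with differences of -2.33 in replicate 1 and -2.12 in replicate 2. Oas1a, an oligoadenylate synthetase that senses double-stranded RNA, differed by -2.97 in replicate 2, while in replicate 1 its DOX array was not well above background. Its relative Oasl2 had levels of -2.45 and -0.74 untreated and -4.29 and -4.10 with DOX. Rtp4, an interferon-induced chaperone, had -1.66 and -0.34 untreated and -4.89 and -4.02 with DOX. It was not well above background on DOX replicate 1, so the fitted difference of -3.46 (SE 0.77, limma adjusted p = 0.455) rests in part on a background value. Irf7, the transcription factor that amplifies the interferon response, and Ifi44 had their highest level on the dim array, at -0.40 and -2.01. On untreated replicate 2 they were at -3.90 and -3.78, still above both DOX arrays, of which the higher had -4.27 and -4.71. Irf7 was not well above background on DOX replicate 2, nor Ifi44 on either DOX array. Xaf1, an interferon-induced pro-apoptotic protein, differed by -1.12 and -2.30 in the 2 pairs. The immunoproteasome subunits Psmb8 and Psmb9, which interferon induces, both differed by -1.46 in replicate 1, and Psmb9 by -2.33 in replicate 2, where Psmb8 was not well above background with DOX. They belong to the MHC class I presentation list, of which 8 of 13 genes had a difference above 0, with a median of 0.44.

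**Figure D2:**
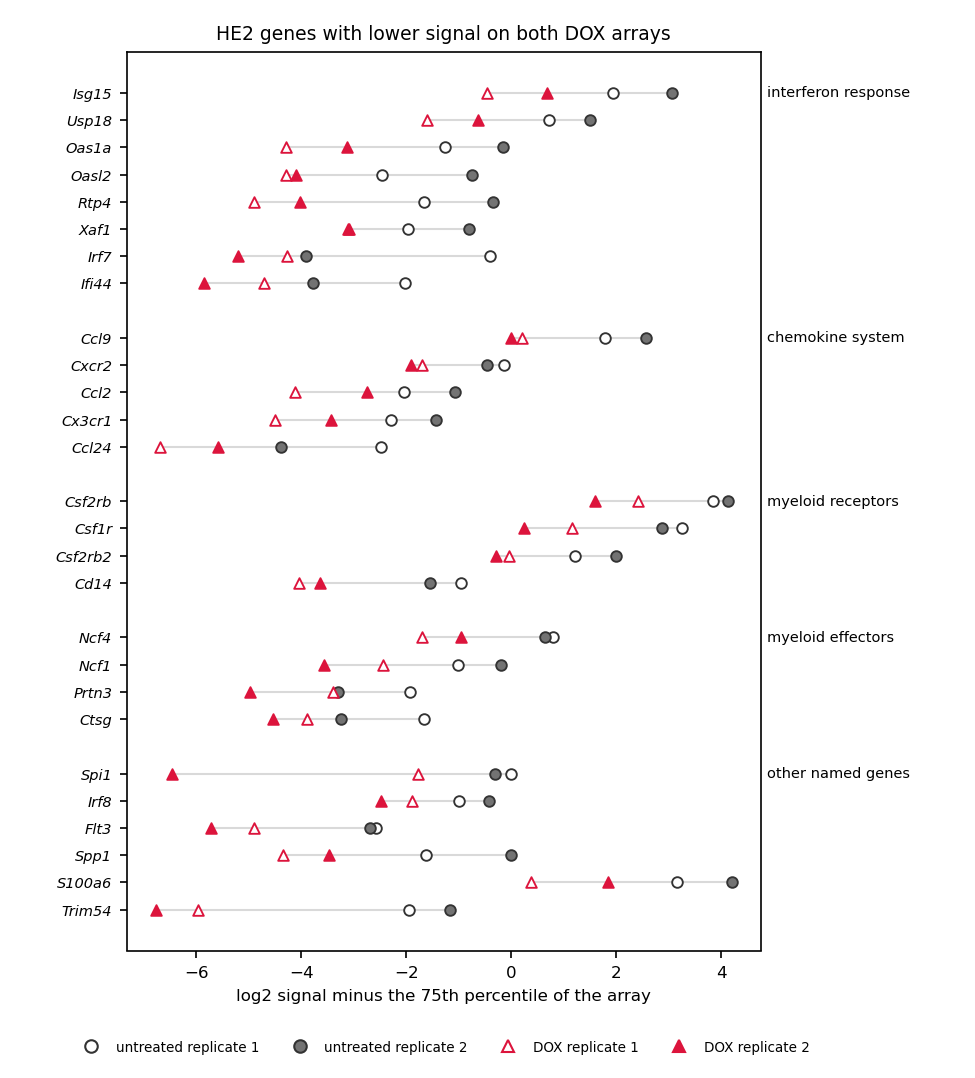
Level of single genes on each of the 4 HE2 arrays (log2 signal, less the 75th percentile of its array), circles for untreated and triangles for DOX, open for replicate 1 and filled for replicate 2. For each gene plotted both triangles lie left of both circles, and the width of the gap differs most for Spi1, at -1.77 and -6.46 with DOX. Some DOX values are not well above background.

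Promoter sequences of the interferon genes are shown because these genes moved together and their promoters are known to hold a shared element, the interferon-stimulated response element. RefSeq promoters (GRCm38.p6) from 250 bases before to 50 after the start were matched by symbol for 16 of the 19 genes. The core GAAANNGAA was searched on both strands and was present in 10 of the 16, against 9.76% of 27025 genes with a promoter. The AP-1 site TGANTCA, whose reverse strand reads the same, was present in 5 of the 16, against 8.97% of all genes. Of the 8 genes at least 2-fold lower in both pairs, 6 had a promoter, of which 3 held the core and 1 held the AP-1 site. Among all named genes at least 2-fold lower in both pairs, 33 of 316 promoters (10.4%) held the AP-1 site, and among those at least 2-fold higher 50 of 1004 (4.98%), beside 732 of 11333 (6.46%) for all named genes tested. Matches of the core may overlap one another, as in Isg15, which holds 3. A match is a description of the letters, not of a bound site. The Isg15 promoter (chr4:156200769-156201068, minus strand) and the Oas1a promoter (chr5:120907476-120907775, minus strand) are printed with the matches of the core in capitals, and the Xaf1 promoter (chr11:72301379-72301678, plus strand) with the AP-1 site in capitals.
Isg15: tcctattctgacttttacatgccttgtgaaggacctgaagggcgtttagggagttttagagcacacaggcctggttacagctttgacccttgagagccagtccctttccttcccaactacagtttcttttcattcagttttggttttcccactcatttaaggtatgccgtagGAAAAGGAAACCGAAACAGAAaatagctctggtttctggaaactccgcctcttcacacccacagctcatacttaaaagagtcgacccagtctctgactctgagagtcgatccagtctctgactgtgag
Oas1a: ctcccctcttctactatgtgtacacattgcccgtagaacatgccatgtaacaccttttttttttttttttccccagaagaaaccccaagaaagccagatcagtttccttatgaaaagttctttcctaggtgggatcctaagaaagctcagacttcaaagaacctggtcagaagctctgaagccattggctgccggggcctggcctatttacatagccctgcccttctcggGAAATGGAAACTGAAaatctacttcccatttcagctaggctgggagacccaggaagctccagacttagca
Xaf1: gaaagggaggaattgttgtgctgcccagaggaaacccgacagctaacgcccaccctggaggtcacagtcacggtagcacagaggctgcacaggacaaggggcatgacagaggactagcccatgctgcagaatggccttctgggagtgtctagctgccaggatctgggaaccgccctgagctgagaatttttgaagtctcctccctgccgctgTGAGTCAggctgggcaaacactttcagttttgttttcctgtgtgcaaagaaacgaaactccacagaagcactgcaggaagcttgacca

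The chemokine system had a median of -1.27 over 14 genes tested, beside 0.42 for named genes, and none was called. A difference below 0 was found for 10, and 4 lay above 0. At least 2-fold lower in both pairs were 5 and higher 1, against 2.93% and 8.85% of named genes. Over the 8 normalizations the median was between -1.78 and -0.69, with 1 to 8 genes at least 2-fold lower in both pairs. Ccl9, a monocyte-attracting chemokine of myeloid cells, had levels of 1.79 and 2.58 untreated and 0.21 and 0.01 with DOX. Ccl2, the chief monocyte attractant, differed by -2.09 and -1.67 in the 2 pairs, and Cx3cr1, the fractalkine receptor, by -2.01 in replicate 2. In replicate 1 Cx3cr1 was not well above background with DOX. Cxcr2, the receptor for neutrophil-attracting chemokines, had -0.14 and -0.46 untreated against -1.70 and -1.90. The single gene at least 2-fold higher in both pairs was Pf4, a platelet chemokine.

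Receptors and signalling proteins of myeloid cells were below 0 for 21 of 25, and none was called. Their median was -0.52, beside 0.42 for named genes, and lay between -1.03 and -0.05 over the 8 normalizations. At least 2-fold lower in both pairs were 5 and higher 0, against 2.93% and 8.85% of named genes. The count lower was 2 to 11 over the 8 normalizations. Csf1r, the M-CSF receptor, had levels of 3.26 and 2.88 untreated and 1.15 and 0.25 with DOX, a fitted difference of -2.37 (SE 0.91, limma adjusted p = 0.467). Its 3 probes disagreed, with differences from -4.06 to 0.34, and the value given is from the brightest. Csf2rb and Csf2rb2, the shared and the IL-3-specific beta chains of cytokine receptors, differed by -1.43 and -2.53 and by -1.25 and -2.28 in the 2 pairs. These neighbouring genes are close copies, so their probes may share signal. Cd14, the endotoxin co-receptor, had -0.95 and -1.54 untreated and -4.04 and -3.64 with DOX. Each of these 4 genes had both DOX arrays below both untreated arrays. Flt3, the receptor of lympho-myeloid progenitors, was well above background on both untreated arrays and neither DOX array, at least 4.38-fold lower by 1 probe, while its other probe differed by -0.03.

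Proteins made by myeloid cells gave a median of -0.95 over 16 genes, beside 0.42 for named genes, and none was called. The median lay between -1.46 and -0.485 over the 8 normalizations. At least 2-fold lower in both pairs were 5 and higher 0, against 2.93% and 8.85% of named genes. Over the 8 normalizations these counts were 2 to 6 lower and 0 to 1 higher. Ncf4 and Ncf1, subunits of the phagocyte NADPH oxidase, had both DOX arrays below both untreated arrays, with fitted differences of -2.04 (SE 0.60) and -2.40 (SE 0.73). Prtn3 and Ctsg, proteases of granulocyte granules, differed by -1.48 and -2.23 in replicate 1, and neither was well above background on DOX replicate 2. Both were dim genes, and in replicate 1 the dimmest signal bin had a median of -1.16. Prtn3 had -3.30 on untreated replicate 2, close to its -3.40 on DOX replicate 1. Spi1 itself had levels of -0.01 and -0.31 untreated and -1.77 and -6.46 with DOX. It was not well above background on DOX replicate 2, and its difference was -1.61 without that array (adjusted p = 0.973 with limma) and -6.30 without DOX replicate 1 (adjusted p = 0.000786 with limma). Irf8, the monocyte and dendritic cell regulator that partners PU.1, differed by -0.90 and -2.05 in the 2 pairs. Not all regulators of myeloid cells were lower: of 10 tested, 7 had a difference above 0, near the 65.62% of named genes, and 4 were at least 2-fold higher in both pairs. Among these was Gfi1, the repressor that silences endothelial genes in hemogenic endothelium, at 0.95 and 1.39 against 3.09 and 2.92. Spi1, Irf8, Csf1r and Gfi1 belong to lists that the study chose on these samples, so their direction is not independent evidence.

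Of 4 macrophage markers, Csf1r and Cd14, which are also members of the myeloid receptor list above, had both DOX arrays below both untreated arrays, Adgre1 stayed between -2.72 and -2.49 on all 4, and Lyz2 had -1.92 and 0.11 untreated and -1.15 and -3.39 with DOX. The log2 of their summed signal was 3.40 and 3.16 untreated and 1.54 and 0.60 with DOX, most of it from Csf1r, whose probes disagreed. The cells had been sorted as KIT+TIE2+CD41+, and the part of these markers in the lower interferon, chemokine and myeloid genes was not tested. Ptprc, the CD45 of blood cells, had -0.84 and -2.24 untreated and -3.39 and -3.22 with DOX, while Myb, a progenitor factor, had 2.44 and 3.35 against 4.17 and 4.33.

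The AP-1 subunits themselves were not shifted together. Of 13 tested, 7 had a difference above 0, with a median of 0.16. Jun had levels of 6.76 and 6.64 untreated and 6.77 and 7.84 with DOX, and Jund 6.66 and 6.92 against 7.37 and 7.67. Fosb was at least 2-fold higher in both pairs, at 2.64 and 2.42 untreated and 3.71 and 3.75 with DOX. Fos had 1.14 and 3.28 untreated and 3.21 and 4.26 with DOX, with overlapping groups; whether the Fos probe also reads the dnFOS transcript is not given in the sources used here. Batf3, the partner of JUN in dendritic cells, had 0.28 and 0.88 untreated and -1.16 and -3.17 with DOX, a fitted difference of -2.75 (SE 0.60, limma adjusted p = 0.455). Atf3, a stress-induced member, differed by -0.26 and -3.77 in the 2 pairs.

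Genes known as AP-1 targets in other cells had a median of -0.60 over 21 tested, beside 0.42 for named genes. Over the 8 normalizations it lay between -1.11 and -0.14. Of the 21, 11 were below 0 and 10 above it, where 65.62% of named genes were above 0. For 8 of them the higher DOX level was under the lower untreated level, against 10.7% of named genes. The reverse held for 0, against 25.9%. Taken within the pairs, the medians of this list were 0.27 in replicate 1 and -0.19 in replicate 2, so the sign was not the same in both. The lower tail held S100a6, a calcium-binding protein of proliferating cells, at 3.17 and 4.20 untreated and 0.38 and 1.84 with DOX, a 5.96-fold difference (log2 -2.58, SE 0.68, limma adjusted p = 0.467). Spp1, which encodes osteopontin, had -1.63 and -0.01 untreated and -4.35 and -3.48 with DOX, and it was not well above background on DOX replicate 1. Vegfa was higher by 1.42 and 1.04, while its second probe differed by -0.71. Vascular FOS:JUN targets named by the study had a median of -0.06 over 16 (0.28 and 0.03 within the pairs), with Axl, a receptor tyrosine kinase, at -2.51 and -1.05 and Vegfa the only member at least 2-fold higher in both pairs. TEAD target genes had a median of 0.08 over 10, and TEAD and Hippo components 0.42 over 17, with Yap1 at 1.85 and 3.13 untreated and 3.51 and 4.25 with DOX. Growth-factor response genes downstream of ERK had a median of 0.59 over 19, beside 0.42 for named genes, with 15 above 0 and 3 at least 2-fold higher in both pairs. Over the 8 normalizations the median exceeded that of named genes by 0.029 to 0.336, and 1 to 6 genes were at least 2-fold higher in both pairs. Among them Egr1 had 2.85 and 3.43 untreated and 4.15 and 4.69 with DOX.

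The 9 genes that the study named for its rising clusters were all above 0, with a median of 1.56. In 8 both DOX arrays lay above both untreated arrays, against 25.9% of named genes, and 6 were at least 2-fold higher in both pairs against 8.85% of named genes. The latter count was 2 to 8 over the 8 normalizations, and none was called. These genes were chosen by the study on these samples, so the count is not independent evidence of their direction. Gata3, a factor of lymphoid and stem cells, had -1.52 and -0.32 untreated and 1.01 and 1.33 with DOX, a 4.25-fold difference (log2 2.09, SE 0.50, limma adjusted p = 0.459). Stat5a and Stat5b, which carry signals of cytokine receptors, were higher by 1.84 and 1.21 and by 1.94 and 1.23. Cish, a feedback inhibitor that STAT5 switches on and a gene outside the 9, had -0.30 and -0.29 untreated and 1.14 and 1.33 with DOX. Gfi1, given above, is among the 9. Bmi1, a Polycomb protein of stem cells, was higher by 1.81 and 1.30, and Sox7, an endothelial factor of early hemogenic endothelium, by 2.69 and 1.87. Hoxb4 was higher by 1.85 and 0.69, Gata1 by 0.99 and 1.68, and Epor by 0.45 and 1.34.

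**Figure D3:**
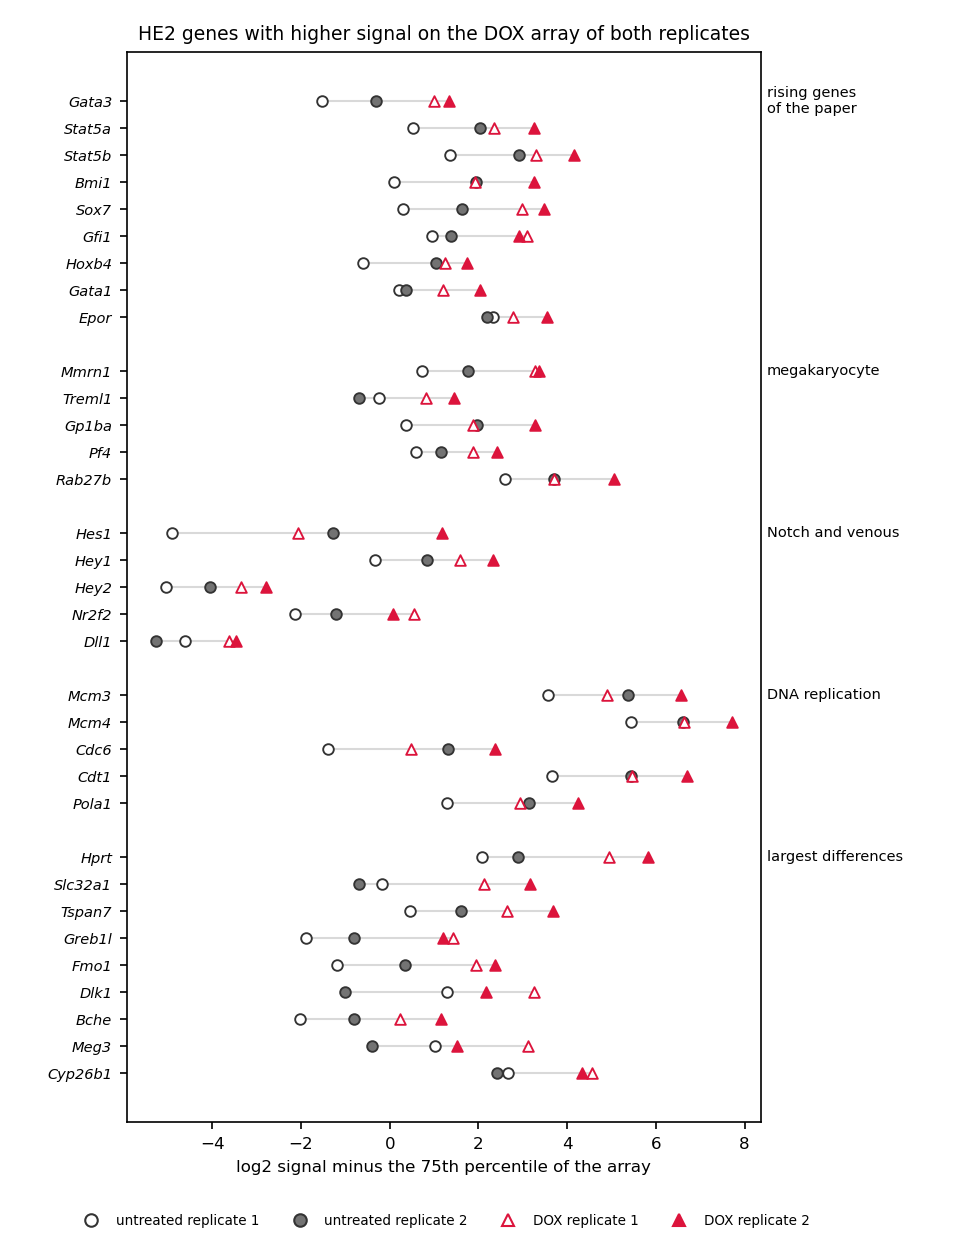
Level of single genes on each of the 4 HE2 arrays (log2 signal, less the 75th percentile of its array), circles for untreated and triangles for DOX, open for replicate 1 and filled for replicate 2. In each pair the triangle lies right of the circle of its own fill; for genes such as Mcm3, at 4.90 and 6.56 with DOX against 3.58 and 5.37, the groups overlap while the pairs do not.

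Several blood and endothelial lists had a median at or above the 0.42 of named genes as a whole, while globins did not. Of 21 genes of the arterial, venous and Notch group 17 were above 0, with a median of 0.95, 5 at least 2-fold higher in both pairs and 0 lower. In 3 of the 21 the higher DOX level was under the lower untreated level. With the mean of all probes the median was 0.32, only 0.058 above that of named genes, and 1 to 6 genes were at least 2-fold higher in both pairs, and 0 or 1 lower, over the 8 normalizations. Hey1, a Notch target, had -0.33 and 0.83 untreated and 1.57 and 2.33 with DOX, and Nr2f2, the venous regulator, -2.15 and -1.21 against 0.55 and 0.08. Hes1, another Notch target, was higher by 2.45 in replicate 2, and in replicate 1 its untreated array was not well above background. Of 21 megakaryocyte and platelet genes 6 were at least 2-fold higher in both pairs and 1 lower, against 8.85% and 2.93% of named genes. Over the 8 normalizations 1 to 9 were higher and 0 to 2 lower, and the median ranged from -0.108 to 0.219 relative to that of named genes. Mmrn1, a platelet granule protein, had 0.74 and 1.77 untreated and 3.27 and 3.37 with DOX. Treml1, a platelet receptor, was higher by 1.06 and 2.14. Selp was the lower one, at -1.47 and -1.04. Of 13 erythroid regulators 12 were above 0, with a median of 0.72 and 0 at least 2-fold different in both pairs. Embryonic and adult globins gave a median of -0.13 over 7. Genes of hemogenic transcription factors had a median of 0.68 over 21, with Fli1 higher by 2.13 and 1.26 and Meis1 by 1.06 and 0.81.

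Genes of DNA replication were above 0 for 18 of 19 tested, against 65.62% of named genes. Their median was 0.81, where the brightest of the 5 signal bins had 0.54 and the next 0.59. At least 2-fold higher in both pairs were 5, against 8.85% of named genes. That count was 0 with quantile normalization, in the authors' values, with cyclic loess and with the percentile over detected probes, and the median lay between 0.27 and 1.27 over the 8 normalizations. The helicase subunits Mcm3 and Mcm4 were higher by 1.32 and 1.19 and by 1.19 and 1.09. Cdt1 and Cdc6, which load this helicase, were higher by 1.81 and 1.25 and by 1.89 and 1.07. Pola1, the catalytic subunit of the priming polymerase, was higher by 1.64 and 1.11. For Mcm3, Cdc6 and Pola1 the untreated level in replicate 2 was above the DOX level in replicate 1, so that the groups overlapped and the difference was seen within pairs. Genes of cell division were above 0 for 17 of 19, with a median of 0.57 and 1 at least 2-fold higher in both pairs.

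**Figure D4:**
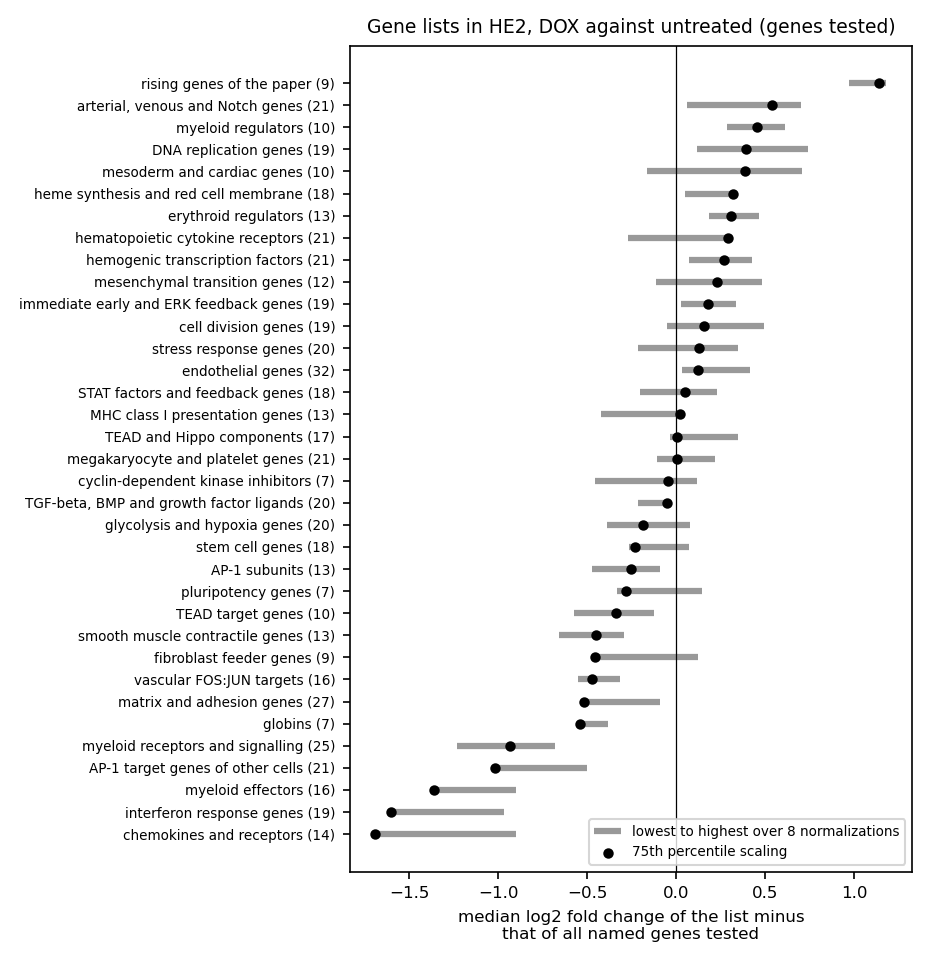
Median DOX difference (log2) of each gene list with at least 7 genes tested, less the median of all named genes tested, as a point for the 75th percentile scaling and a bar from the lowest to the highest of 8 normalizations; the number tested stands in brackets. The interferon, chemokine, myeloid effector, myeloid receptor and AP-1 target lists lie wholly at or below -0.503, the 9 genes of the rising clusters wholly at or above 0.971, and many other bars cross 0.

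Hematopoietic cytokine receptors went both ways. Of 21 tested 4 were at least 2-fold lower in both pairs (Flt3, Csf1r, Csf2rb and Csf2rb2) and 2 higher, against 2.93% and 8.85% of named genes. Their median was 0.71, and -0.01 with the mean of all probes. The remaining lists are given by their medians. Smooth muscle contractile genes had a median of -0.04 over 13 tested with 0 at least 2-fold different in both pairs either way. Matrix and adhesion genes had a median of -0.10 over 27 (0.24 and 0.21 within the pairs), fibroblast feeder genes -0.04 over 9, pluripotency genes 0.14 over 7 and stem cell genes 0.18 over 18, the last with 4 at least 2-fold higher in both pairs and 0 lower, which turned to 0 higher and 3 lower with the percentile over detected probes. STAT factors and feedback genes had a median of 0.46 over 18 with 4 at least 2-fold higher in both pairs (0 to 5 over the 8 normalizations) and 0 lower, and endothelial genes 0.54 over 32. Heme and red cell membrane genes had 0.73 over 18, mesenchymal transition genes 0.65 over 12, and mesoderm and cardiac genes 0.80 over 10. Stress response genes had 0.54 over 20, glycolysis and hypoxia genes 0.23 over 20, growth factor ligands 0.36 over 20, and cyclin-dependent kinase inhibitors 0.37 over 7. The small endoderm and mast cell lists had 0.75 over 4 and 0.82 over 3. The sorting markers had a median of -0.40 over 4. Of the 3 genes listed for cluster 2 of the study 2 were tested, and of these Fgf15 differed by -2.62 and -2.06 in the 2 pairs. The 4 tested genes of the study's myeloid clusters had a median of -1.92. Both of these lists were chosen by the study on these samples.

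Ranked by the smaller of the 2 within-pair differences, with all 4 arrays well above background and no overlap, the largest difference upwards was at Hprt, the locus that carries the cassette. Hprt had levels of 2.08 and 2.88 untreated and 4.94 and 5.83 with DOX, a fitted difference of 2.91 (SE 0.55, limma adjusted p = 0.279). Next came Slc32a1, a vesicular transporter of inhibitory transmitters, at -0.17 and -0.70 untreated and 2.12 and 3.16 with DOX, of which a second probe differed by -0.56. Greb1l, a developmental coactivator, had -1.88 and -0.82 untreated and 1.43 and 1.21 with DOX, a 6.35-fold difference (log2 2.67, SE 0.50, limma adjusted p = 0.279). Dlk1, a Notch-like membrane protein, and Meg3, the long non-coding RNA of the same imprinted locus, were both among the 12. Dlk1 had 1.29 and -1.01 untreated and 3.26 and 2.17 with DOX, and Meg3 1.02 and -0.41 against 3.12 and 1.52. The 3 Meg3 probes gave differences from 0.14 to 2.01. Cyp26b1, which degrades retinoic acid, had 2.67 and 2.42 untreated and 4.56 and 4.34 with DOX. The others were Tspan7, Fmo1, Bche, Sox7, Syt10 and Grrp1, with fitted differences from 1.98 (Grrp1) to 2.58 (Fmo1), and a second Fmo1 probe gave 0.33.

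Downwards, the 12 genes were Cd209d, Olfr94, Capn1, Gpr37l1, Rhbdl2, Xntrpc, Fbxw13, Isg15, Pstpip1, S100a6, Zfp352 and Spint2. A second probe went the other way for Xntrpc (0.77) and Spint2 (0.64). In 9 of the 12 untreated replicate 1, the dim array, was the highest of the 4. Olfr94, an olfactory receptor, had 1.44 and -0.21 untreated and -1.57 and -3.34 with DOX. Fbxw13 had 3.92 on the dim array and 0.32 on the other untreated array, against 0.14 and -2.08 with DOX. The 3 for which untreated replicate 2 was the highest were Isg15, S100a6 and Pstpip1, the last an adaptor of the myeloid cytoskeleton, at -0.38 and 0.33 untreated and -2.76 and -4.23 with DOX (log2 -3.47, SE 0.71, limma adjusted p = 0.430). Of 14237 named genes measured on all 4 arrays, 296 were well above background on both arrays of 1 group and neither of the other. Of these 282 were seen in untreated cells and 14 with DOX. The share of probes well above background was 51.1% and 74.8% on the untreated arrays, and 58.0% and 59.1% on the DOX arrays. The part of detection in this split was not tested. The largest bounds were for Gm11567 (at least 15.8-fold lower), Bsph1 (13.1), Acsbg3 (11.97), Trim54 and Spic (9.12), a PU.1-related factor of red pulp macrophages with -1.96 and -1.40 untreated and -5.80 and -5.51 with DOX. Ctcfl followed at 7.82. For Gm11567, Bsph1, Acsbg3 and Ctcfl these limits rest on the dim array and do not hold in replicate 2 alone, where the differences were -2.48, -1.45, -1.69 and -1.69. For Trim54 and Spic they were -5.61 and -4.12. In the other direction Olfml1 (at least 3.80-fold higher), Mal (3.76), Prom2 (3.10), Robo2 (2.48), Sntg2 (2.16) and Krtap12-1 (1.96) were well above background with DOX alone. For Prom2 the DOX array of replicate 1 was no higher than the untreated one (-3.92 and -3.84), and its second probe gave -0.54. Krtap12-1 differed by 0.21 in replicate 1, and its groups overlapped.

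The axis from HE1, the CD41- stage before HE2, to HP was taken from the untreated arrays of those populations, which share no array with the HE2 comparison. Of 25054 genes tested, 729 were higher in HE1 and 504 higher in HP. Of the HE1 genes 578 were tested in HE2, where 438 had a difference above 0 with DOX, against 56.18% of all genes tested, named or not, and the median was 0.68 (0.74 in replicate 1 and 0.65 in replicate 2). At least 2-fold higher in both pairs were 114 of them, and 8 lower. Of the HP genes 437 were tested, with 250 above 0. Their median of 0.17 was equal to that of all genes tested but below the 0.42 of named genes. Of them 27 were at least 2-fold higher in both pairs and 43 lower. Beside these, 1574 and 1004 of all 24075 genes, named or not, were at least 2-fold higher and lower in both pairs. Most stage genes had a symbol, 484 of the 578 and 377 of the 437. Of named genes 65.62% were above 0, with 8.85% and 2.93% at least 2-fold higher and lower in both pairs. In the authors' processed values the medians were 0.48 for HE1 genes and 0.16 for HP genes.

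The DOX effect in HE2 was tested against that in HE1 and in HP cells. Limma called 0 of 22083 genes (0%) for HE1 and 0 of 23108 (0%) for HP, with 243 and 974 at an unadjusted p under 0.05, where chance gives 1104 and 1155. The lowest adjusted p was 1.00 and 0.884. Values of the lists are therefore set side by side with no difference between the populations claimed. Interferon genes had a median of -0.75 in HE1 (18 tested), -1.18 in HE2 and -2.08 in HP (19 tested), where the medians over named genes were 0.21, 0.42 and 0.18. Chemokine genes had -0.23 (8 tested), -1.27 (14 tested) and -1.94 (13 tested), so these medians are over different members. Myeloid receptors had -0.19 (24 tested), -0.52 and -1.36 (25 tested in both). Myeloid effectors had 0.11 in HE1 over 13 genes, -0.95 in HE2 and -1.23 in HP. Genes of the rising clusters had 0.60, 1.56 and 0.40. Isg15 differed by -1.63 (SE 0.67) in HE1, -2.39 (SE 0.67) in HE2 and -3.12 (SE 0.67) in HP cells. Cd14 differed by 0.71 (SE 0.78), -2.59 (SE 0.79) and -3.43 (SE 0.79). Gata3 differed by 0.66 (SE 0.50), 2.09 (SE 0.50) and 0.36 (SE 0.51).

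The genes with the lowest p of these tests did not pass the adjustment either. Against HE1, Vsir, an immune checkpoint receptor, had an interaction of -4.03 (SE 0.999), Atp4a of -5.10 (SE 1.41) and Crip3 of -3.57 (SE 1.05). Rnf43, a Wnt receptor ligase, was above by 2.35 (SE 0.73), Calca by 2.38 (SE 0.76) and Nox4 by 2.24 (SE 0.73), with a limma adjusted p of 1.00 for all 6. In HE2 a second probe gave a difference of -0.32 for Calca and -0.87 for Nox4, opposite to the one used. Against HP, Lpl, lipoprotein lipase, was above by 2.95 (SE 0.71), with 0.80 in HE2 (-0.49 by a second probe) and -2.15 in HP. Parp14, an interferon-induced ADP-ribosyltransferase, was above by 2.97 (SE 0.87), with -0.54 and -3.52, and Fam107b by 2.29 (SE 0.59). Kcnk3, Trim54 and Gulo had interactions of -3.88 (SE 0.93), -3.998 (SE 0.997) and -6.15 (SE 1.55), each with a limma adjusted p of 0.884. Atp4a, Kcnk3 and Trim54 were not well above background on either HE2 DOX array, nor Rnf43 and Calca on untreated replicate 1.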

How the data were processed

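RNA of the sorted cells was hybridised to 1-colour Agilent arrays. The deposited scanner files hold intensity values per spot, which the authors obtained with Agilent Feature Extraction 10.7.1.1 per the submitters' notes (10.7.3.1 in the file headers). The authors also deposited normalized log2 values, which served as an alternative. The genome build of the probes is not given in the sources used here. Here the log2 processed signal was scaled by subtracting the 75th percentile of each array. Control spots and outlier flags were left out, spots of 1 probe were averaged, and the probe with the highest mean over 27 arrays stood for its gene. Genes entered the test where every array of 1 or more groups had them well above background. Limma 3.58.1 in R 4.3.3 fitted 13 group means to all 27 arrays, with Benjamini-Hochberg adjustment, and a call needed an adjusted p under 0.05 and 2-fold. A bound ("at least") set the mean of the brighter group against the lowest signal well above background, or the dim probe's own where higher. Genes named were the 12 largest differences each way by the smaller pair, the 6 largest bounds and the 3 lowest interaction p-values each way, plus members of the lists. Members and lists were chosen with earlier results of these data known. The steps were tested on simulated data. Same-numbered HE2 arrays shared a slide, and their deviations correlated with r = 0.27. Values of a few list members are not reported here.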

Additional observations from a re-analysis of the deposited data

How the results depend on the processing

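The count of 1 gene called depended on the processing. It was 0 with normexp background correction, median scaling, no filter on dim probes, a filter in both groups, the sorted populations alone or array weights, and 0 with 3 alternatives chosen after seeing the data (the 75th percentile over probes well above background on all arrays, cyclic loess, and eBayes over all genes). With the replicate block it was 0, both in the 4 HE2 arrays alone and in all 27. It was 15 with slide as a fixed block, 4 with slide as a random block, 4 with the HE2 arrays alone and 7836 at 2-fold alone, and 0 to 323 when 1 array was left out. Genes higher at an unadjusted p numbered 1472, against 2814 with median scaling, 336 with the percentile over detected probes, 666 and 2242 with the replicate block in the HE2 arrays and in all 27, 3247 and 3091 with slide as a fixed and a random block, 253 with the HE2 arrays alone, 761 with the sorted populations and 558 with array weights, and 257 to 3842 when 1 array was left out. Genes lower numbered 951, against 334 with normexp, 586 with median scaling, 2062 with the percentile over detected probes, 1479 without and 555 with both filters, 2013 and 1768 with slide as a block and 311 with array weights, and 353 to 2626 when 1 array was left out. Genes 2-fold higher in both pairs numbered 1574, against 660 with normexp, 1023 with quantile normalization, 2602 with median scaling, 447 in the authors' values, 147 with the percentile over detected probes and 901 with cyclic loess. Genes 2-fold lower in both pairs numbered 1004, against 146, 339 and 2300 with normexp, the authors' values and the percentile over detected probes, and 2266 without and 438 with both filters. The median of genes higher in HE1 was 0.681, and 0.477 in the authors' values. The cause of these shifts was not tested. The tests against HE1 and HP called 0 genes in every analysis run.

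Runx1 changed sign to 0.17 with normexp, 0.43 with median scaling and 0.23 with the mean of all probes, and Kdr to 0.083, 0.27 and 0.25. When 1 array was left out, Krtap12-1, Crip3, Junb, Runx1, Tek, Itga2b, Kdr and Pecam1 changed sign. Krtap12-1 lay between -0.43 and 2.51, Crip3 lay between -2.42 and 0.094, Junb lay between -2.17 and 0.66, Runx1 lay between -0.52 and 0.46. Tek lay between -2.34 and 1.11, Itga2b lay between -3.15 and 0.63, Kdr lay between -0.998 and 0.61, Pecam1 lay between -2.09 and 0.74. The same-numbered arrays share a slide, so the replicate block and the slide cannot be told apart within HE2. With 2 arrays in each group, 1 of them dim, the depth of signal limits the genes near background most.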
